A study of Mus musculus with 2 samples.

Results

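The milk and secretory epithelium genes are 9 genes of the mammary gland: Csn3, Csn1s1, Csn2, Wap, Lalba, Wfdc2, Wfdc18, Lcn2 and Ltf. They were taken by symbol from the 31054 gene rows of both count tables, and each symbol matched 1 row. RNA of single cells was counted in 2 libraries, 1 from a Met-1 transplant and 1 from a PyMT tumour. Met-1 is a mouse mammary tumour line and PyMT is the polyoma middle T oncogene, which gives mice mammary tumours. The line is given as Met-1 by the sample label, and the design text of the series names EO771 for the implanted cells. All mice were C57BL/6 and of the genotype inAd-Chaser-mTmG (Adiponectin-rtTA; TRE-Cre; Rosa26 mT/mG). In the mice of both groups, therefore, doxycycline turns on Cre under the control of the adipocyte promoter of Adiponectin, and Cre switches the reporter to EGFP. This genotype is that of the mice, and whether the implanted cells carried the reporter was not tested. The cells of both libraries had been sorted as EGFP-positive and tdTomato-negative. Age, the number of animals and the driver of the PyMT transgene are not stated in the labels used here. Each group is a single library, so differences between the tumours are unreplicated and no test was made. Parentheses after a value hold its 95% interval, which covers counting error alone.

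Milk is made by the alveolar branch of the luminal epithelium. Prolactin acts through STAT5 to switch on the genes of the caseins and of the whey proteins as these cells mature. Lcn2 and Ltf encode secreted proteins that withhold iron from bacteria, and both are known from epithelia and from neutrophil granules. Genes of the WFDC family encode small secreted proteins with a whey acidic protein domain. Tumours of the luminal lineage are known to keep part of this secretory programme. Milk RNA that leaks from broken cells is also known to enter droplets of other cells, where it is counted as if it were their own.

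The 3 casein genes lie within 1 stretch of chromosome 5 in build mm10. Csn1s1 (ENSMUSG00000070702) spans chr5:87666208-87682578 on the plus strand, Csn2 (ENSMUSG00000063157) chr5:87692624-87699630 on the minus strand and Csn3 (ENSMUSG00000001622) chr5:87925579-87932665 on the plus strand. The gene annotation has a gene on the opposite strand that overlaps Csn3, 1700066N21Rik. The sources used here do not say whether counting used strand. Wap (ENSMUSG00000000381, chr11:6635482-6638637, minus strand) and Wfdc18 (ENSMUSG00000000983, chr11:83709015-83711348, plus strand) share chromosome 11. Wfdc2 (ENSMUSG00000017723, chr2:164562413-164568510, plus strand) and Lcn2 (ENSMUSG00000026822, chr2:32384633-32388252, minus strand) share chromosome 2. Lalba (ENSMUSG00000022991) lies at chr15:98480400-98482721 on the minus strand, and Ltf (ENSMUSG00000032496) at chr9:111019271-111042767 on the plus strand. No gene overlaps the other 8 members in the annotation.

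Promoter sequences of 8 of the 9 genes were matched by symbol in RefSeq (build GRCm38.p6, from 250 bases before to 50 after the start). The motif TTCNNNGAA, the core that STAT proteins bind, was searched for. It reads the same on both strands, and it was found in 2 of the 8 promoters, those of Csn1s1 and Csn2. Of all 32851 promoters of this length, 8.30% held it. The match begins at -100 from the start of Csn1s1 and at -93 from that of Csn2. The motif of NF-kappaB, searched on both strands, was in 0 of the 8 and in 4.51% of all promoters. A match describes letters only. Starts here are those of RefSeq and can differ from the gene ends given above. The Lcn2 and Wfdc2 windows lie wholly inside the annotated genes, and the Csn2 window mostly does. Bases before the annotated starts of Lcn2 and Wfdc2 were thus not searched. The promoters of these caseins, which were scarce in the cells below, are shown with those of Wfdc18 and Lcn2, which were abundant in both tumours. They cover chr5:87665958-87666257 (plus strand, Csn1s1), chr5:87699376-87699675 (minus strand, Csn2), chr11:83708754-83709053 (plus strand, Wfdc18) and chr2:32387690-32387989 (minus strand, Lcn2), each written 5′ to 3′ with the STAT motif in capitals.
Csn1s1: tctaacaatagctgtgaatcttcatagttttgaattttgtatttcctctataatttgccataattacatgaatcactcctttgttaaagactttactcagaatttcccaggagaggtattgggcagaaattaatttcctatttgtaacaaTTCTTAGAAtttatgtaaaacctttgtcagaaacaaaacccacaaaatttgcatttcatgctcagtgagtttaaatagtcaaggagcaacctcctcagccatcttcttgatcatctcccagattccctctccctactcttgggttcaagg
Csn2: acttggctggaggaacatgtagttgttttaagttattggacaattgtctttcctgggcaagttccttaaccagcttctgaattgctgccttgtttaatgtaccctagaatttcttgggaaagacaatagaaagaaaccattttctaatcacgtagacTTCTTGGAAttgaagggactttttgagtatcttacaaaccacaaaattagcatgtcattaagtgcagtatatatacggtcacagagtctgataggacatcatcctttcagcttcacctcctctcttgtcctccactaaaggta
Wfdc18: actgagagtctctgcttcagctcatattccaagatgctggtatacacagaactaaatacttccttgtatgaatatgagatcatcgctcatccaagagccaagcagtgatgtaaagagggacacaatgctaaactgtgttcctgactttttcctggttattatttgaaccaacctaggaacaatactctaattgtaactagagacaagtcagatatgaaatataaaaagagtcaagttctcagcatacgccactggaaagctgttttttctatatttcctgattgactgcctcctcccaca
Lcn2: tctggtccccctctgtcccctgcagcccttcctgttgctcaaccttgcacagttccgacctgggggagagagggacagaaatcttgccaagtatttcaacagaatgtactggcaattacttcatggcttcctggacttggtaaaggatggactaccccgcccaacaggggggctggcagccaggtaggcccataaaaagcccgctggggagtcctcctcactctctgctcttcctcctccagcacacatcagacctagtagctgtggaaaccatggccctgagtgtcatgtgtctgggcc

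Of the deposited barcodes, 2135 of 2451 were kept in the Met-1 library and 590 of 619 in the PyMT library. Kept cells had a median of 7749 UMIs in the Met-1 library and 3471 in the PyMT library, where a UMI (unique molecular identifier) marks 1 captured RNA molecule. The libraries shared 0 barcodes. Cells were classed by the UMIs of 11 marker lists, none of which holds a member. A cell counted as luminal-like when at least 75% of its marker UMIs, with at least 3 UMIs over 2 markers, came from 12 luminal genes such as Krt8, Krt18, Epcam and Cldn3. Luminal-like cells numbered 34 in Met-1 (1.59% of kept cells, 1.11 to 2.22) and 81 in PyMT (13.7%, 11.1 to 16.8). In these cells 93.5% of marker UMIs were luminal at the median in both libraries, and a median of 8 of the 12 markers was seen. Krt8 had a UMI in 88.2% of the Met-1 and 97.5% of the PyMT luminal-like cells, against 1.02% and 8.60% of the other assigned cells. The shares that decided the class lay under 85% for 9 of the Met-1 and 10 of the PyMT luminal-like cells, and 3 and 6 further barcodes fell between 65% and 75%. Of the markers of other classes, those of macrophages were highest in luminal-like cells, at 308 CPM (UMIs of a gene over all UMIs of the class, scaled to 1000000) in 26 of 34 Met-1 cells and 221 CPM in 73 of 81 PyMT cells. Neutrophil markers summed to 32.1 CPM in Met-1 against 29.6 CPM in PyMT, basal epithelial markers to 22.9 and 63.0 CPM, T or NK markers to 6.10 and 37.0 CPM, and each other list to less than 22 CPM in either. The part of other cells' RNA in the results was not tested. RNA of EGFP, the reporter used for the sort, stood at 117.5 CPM in luminal-like and 3540 CPM in the other assigned cells of Met-1. In PyMT these values were 1549 and 3194 CPM. Single luminal-like cells held up to 13 EGFP UMIs in Met-1 and up to 168 in PyMT, where a cell with 32056 UMIs held 0. An EGFP UMI was found in 20 of 34 luminal-like cells of Met-1 and in 49 of 81 of PyMT. With each cell thinned to 1000 UMIs at random, cells below that depth left out, it was found in 22.2% and 38.2% of luminal-like cells, against 87.5% and 76.3% of the other assigned cells. The part of the sort in the results below was not tested. Whether a luminal-like cell is a tumour cell or normal mammary epithelium was not tested either, and tumour below names the library.

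The 9 genes made up 4.88% (4.83 to 4.94) of all UMIs of the Met-1 luminal-like cells, 32002 of 655218, and 3.57% (3.54 to 3.61) of those of PyMT, 48261 of 1350228. Wfdc18, Csn3 and Lcn2 gave most of this, 31349 UMIs in Met-1 and 45624 in PyMT. Wfdc18 had more UMIs than any other gene in Met-1 luminal-like cells and ranked 3 in PyMT. Csn3 ranked 8 in Met-1 and 2 in PyMT, and Lcn2 ranked 6 in Met-1 and 5 in PyMT. Single cells ranged widely: the 9 genes held 0.156% of the UMIs in the lowest, 3.69% in the median and 12.1% in the highest Met-1 cell. In PyMT cells the lowest, median and highest shares were 0.244%, 3.20% and 10.5%. The spread of single cells was thus far wider than the gap between the medians of the tumours, and the cells of both tumours overlap in the plot of share against depth. A median of 4 of the 9 genes was seen per Met-1 cell and 5 per PyMT cell. The luminal-like cells had 506 to 88260 UMIs in Met-1 and 632 to 66120 in PyMT, with medians of 7949 and 17164. The 3 deepest cells gave 34.4% of the Met-1 UMIs and 10.1% of those of PyMT, so sums weigh few cells more in Met-1.

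**Figure D1:**
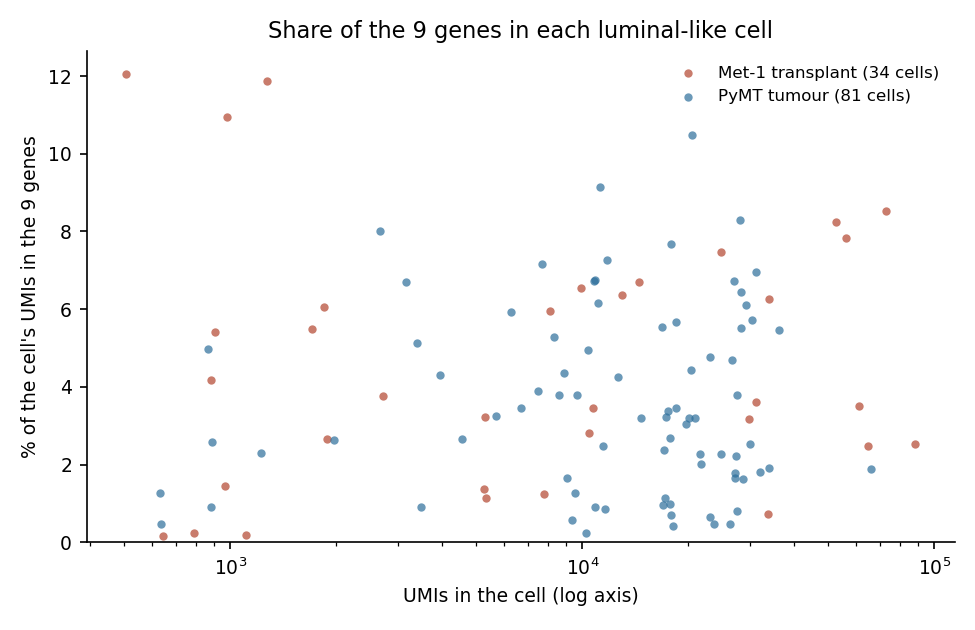
Percentage of a cell's UMIs in the 9 genes (vertical axis) against the cell's total UMIs (horizontal, log axis) for each of the 34 Met-1 and 81 PyMT luminal-like cells. Points of both tumours cover nearly the same heights, and the median cell lies at 3.69% in Met-1, against 3.20% in PyMT.

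Of the caseins, the proteins that form milk micelles, only Csn3 was abundant. Csn3 encodes kappa-casein, which coats the micelle and keeps it in solution. It summed to 5470 UMIs or 8348 CPM (8129 to 8573) in Met-1 luminal-like cells and 19290 UMIs or 14286.5 CPM (14086 to 14490) in PyMT luminal-like cells. In single cells of Met-1 the lowest value was 0, the median 5168 and the highest 34564 CPM. In PyMT cells these were 0, 11571 and 50288 CPM. Csn3 had a UMI in 26 of 34 Met-1 and 78 of 81 PyMT cells. The 8 Met-1 cells without it had a median of only 3186 UMIs, yet all 8 held Wfdc18 and 5 held Lcn2. The 3 such cells of PyMT had a median of 881 UMIs and held both. The ratio of Met-1 over PyMT was 0.584 (0.567 to 0.602), short of the 2-fold mark. With a mitochondrial limit of 5% the log2 ratio was -0.07 in place of -0.77, while a stricter class rule (-1.24) and markers without keratins (-1.13) took Csn3 past the mark, as lower in Met-1.

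Csn1s1, an alpha-casein gene, was rare in both tumours and rarer in Met-1. It had 10 UMIs in 4 of 34 Met-1 cells, with at most 3 in a cell, and 268 UMIs in 20 of 81 PyMT cells, with at most 75 in a cell. This came to 15.3 CPM (7.32 to 28.1) in Met-1 against 198 CPM (175 to 224) in PyMT, and the ratio of Met-1 over PyMT was 0.0769 (0.0365 to 0.144). In PyMT 3 cells held 60.8% of its UMIs, so few of these cells carried it strongly. Csn2, the gene of beta-casein and a main protein of mature milk, was all but missing. It had 0 UMIs in Met-1 luminal-like cells, where a count of 0 allows up to 4.58 CPM, and 2 UMIs or 1.48 CPM (0.179 to 5.35) in PyMT. No ratio is given for it.

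The whey genes Wap and Lalba were seen in a minority of cells and were lower in Met-1. Wap encodes the whey acidic protein, a mark of late alveolar maturation in rodents. It had 21 UMIs in 4 of 34 Met-1 cells and 133 UMIs in 18 of 81 PyMT cells, or 32.1 CPM (19.8 to 49.0) and 98.5 CPM (82.5 to 117). The ratio of Met-1 over PyMT was 0.325 (0.195 to 0.518). A single Met-1 cell held 15 of the 21 UMIs, and without the top cell of each tumour the log2 ratio was -2.17 in place of -1.37. With a mitochondrial limit of 5% it was -3.54. Lalba encodes alpha-lactalbumin, the subunit that turns a galactosyltransferase into lactose synthase. It had 123 UMIs in 14 of 34 Met-1 cells and 1140 UMIs in 37 of 81 PyMT cells, or 188 CPM (156 to 224) and 844 CPM (796 to 895). The ratio was 0.222 (0.183 to 0.268). The median cell of each tumour had 0 Lalba, and the highest cell 11358 CPM in Met-1 against 13007 CPM in PyMT. The low Lalba in Met-1 depends on 1 barcode that the class rule left as mixed, described at the end, and with each cell thinned to 1000 UMIs the log2 ratio was -0.36, short of 2-fold. The highest Met-1 cell had 21 Lalba UMIs among only 1849 UMIs, and thinning gives that cell the same weight as the deepest cells. Its part in the thinned ratio was not tested. The cells with Wap were mostly cells with Lalba: 3 of 4 in Met-1 and 15 of 18 in PyMT, where Lalba was seen in 41.2% and 45.7% of all luminal-like cells. Cells with Wap were also deeper, with a median of 66936 UMIs in Met-1 and 22548 in PyMT, against 5322 and 11623 in cells without it.

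**Figure D2:**
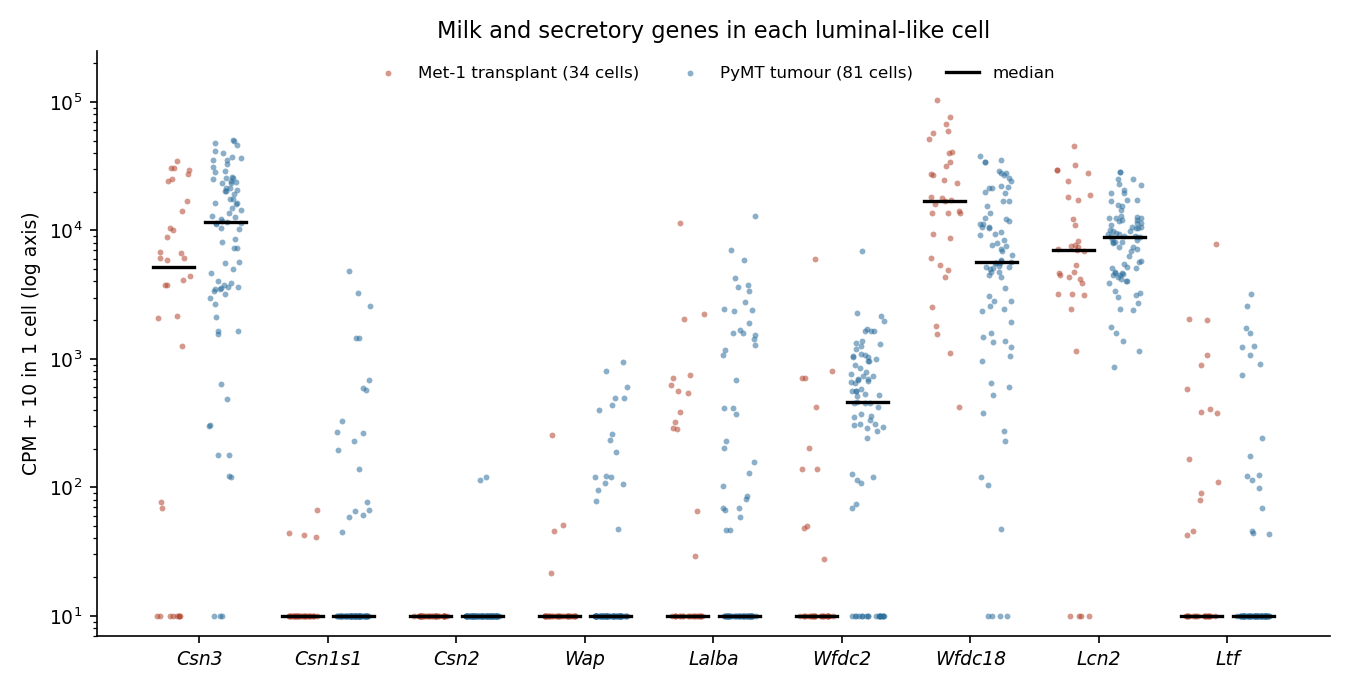
CPM + 10 of each gene in each luminal-like cell (log axis), with Met-1 (34 cells) left of PyMT (81 cells) and a black line at the median. Csn3, Wfdc18 and Lcn2 are high in most cells of both tumours. Wfdc2 has its median above 0 in PyMT only, and the points at 10 are cells with 0 UMIs.

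The related WFDC genes Wfdc18 and Wfdc2 differed in opposite directions. Wfdc18 encodes a small WAP-domain protein also named Expi, a protease inhibitor-like protein of the mammary gland. It summed to 19184 UMIs or 29279 CPM (28866 to 29696) in Met-1 against 13959 UMIs or 10338 CPM (10168 to 10511) in PyMT. The lowest, median and highest cells had 415, 16987 and 103378 CPM in Met-1, and 0, 5688 and 37763 CPM in PyMT. All 34 Met-1 cells and 77 of 81 PyMT cells had a UMI. The ratio of Met-1 over PyMT was 2.83 (2.77 to 2.89), and the top cell held 29.0% of the Met-1 UMIs. Without the top cell of each tumour the log2 ratio was 1.26 in place of 1.501. Wfdc2 encodes HE4, a secreted protein of many epithelia. It had 63 UMIs or 96.2 CPM (73.9 to 123) in Met-1 against 868 UMIs or 643 CPM (601 to 687) in PyMT. A UMI was seen in 11 of 34 Met-1 and 62 of 81 PyMT cells, and the median cell held no UMI in Met-1, against 448 CPM in PyMT. The 4 deepest Met-1 cells, with 61133 to 88260 UMIs, each held 0 Wfdc2. The ratio was 0.150 (0.114 to 0.193).

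The iron-binding proteins also differed from each other. Lcn2, which encodes lipocalin 2 and binds bacterial siderophores, stayed within 2-fold. It had 6695 UMIs or 10218 CPM (9975 to 10466) in Met-1 against 12375 UMIs or 9165 CPM (9004 to 9328) in PyMT. The ratio of Met-1 over PyMT was 1.11 (1.08 to 1.15). The lowest, median and highest cells had 0, 6970 and 45570 CPM in Met-1, and 855, 8842 and 28696 CPM in PyMT. The sums thus put Met-1 slightly above PyMT and the medians put it below, and without the top cell of each tumour the log2 ratio of the sums was -0.10 in place of 0.16. Ltf, which encodes lactoferrin, had 436 UMIs or 665 CPM (604 to 731) in Met-1 against 226 UMIs or 167 CPM (146 to 191) in PyMT. The ratio was 3.98 (3.38 to 4.69). It was seen in 15 of 34 Met-1 and 19 of 81 PyMT cells, and 3 cells held 72.5% of the Met-1 and 56.2% of the PyMT UMIs. Of 10 neutrophil markers, 8 had 0 UMIs in the Met-1 luminal-like cells and 1 had 0 UMIs in those of PyMT. Together the markers had 21 UMIs in 12 of 34 Met-1 cells and 40 UMIs in 30 of 81 PyMT cells. S100a9, among the most abundant RNAs of neutrophils, had 1 UMI in the Met-1 cells, while its partner S100a8 had 620, of which 582 were in 1 cell. In the PyMT cells S100a9 had 73 UMIs and S100a8 had 107, seen in 53.1% and 63.0% of cells. The part of neutrophil RNA in Lcn2 and Ltf was not tested.

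Set against all genes, 2 of the 8 measured members were at least 2-fold higher in Met-1 luminal-like cells on the log2(CPM + 10) scale, Wfdc18 (1.501) and Ltf (1.93). Of the 3805 genes with at least 50 UMIs in either tumour, 5.34% were higher by this rule. At least 2-fold lower were 4 of the 8, Wfdc2 (-2.62), Lalba (-2.11), Csn1s1 (-3.04) and Wap (-1.37), against 7.70% of all measured genes. Csn1s1 and Wap reached 50 UMIs in PyMT only, so a low value in Met-1 was built into their passing, and with 50 UMIs required in both libraries 2 members were lower. Csn3 (-0.77) and Lcn2 (0.16) passed neither mark, and Csn2 was not measured. The median log2 ratio, which includes Csn1s1 and Wap, was -1.07 over the 8 members and -0.07 over all measured genes. The members were chosen with earlier results of these data known, so these counts describe them and support no rule for milk genes. With each cell thinned to 1000 UMIs, Wfdc18 was higher (1.21), Wfdc2 lower (-3.34) and Lalba not past the mark (-0.36), while Csn1s1, Wap and Ltf had too few UMIs left to be measured.

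**Figure D3:**
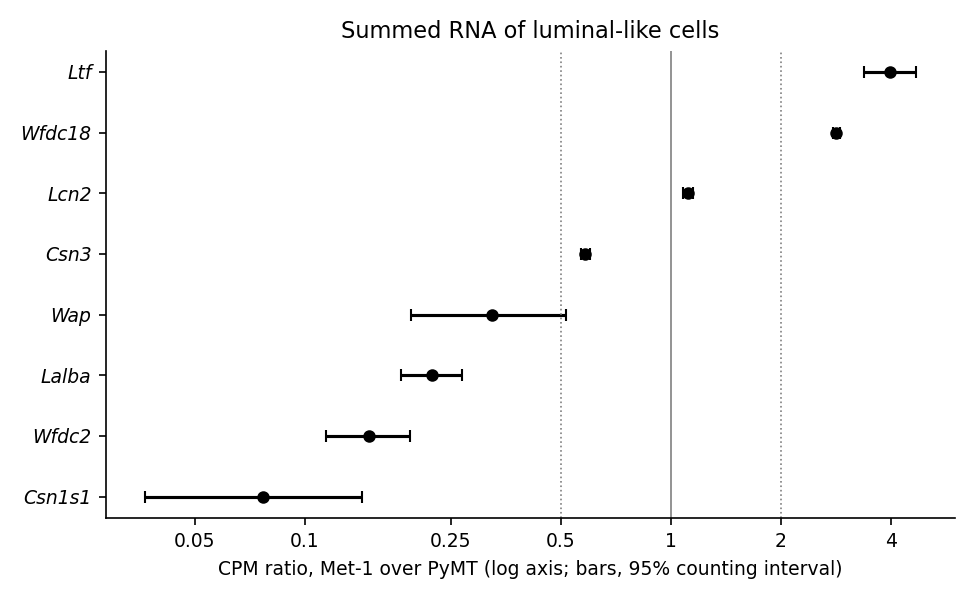
CPM ratio of Met-1 over PyMT luminal-like cells for the 8 measured genes (log axis) with 95% intervals for counting error. Dotted lines mark 2-fold. Ltf and Wfdc18 lie above 2, Lcn2 and Csn3 lie between the lines, and the other 4 lie below 0.5, with the interval of Wap crossing that line.

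Within a tumour, the members did not all vary together from cell to cell. Spearman's rho of log2(CPM + 10) between Csn3 and Lcn2 was 0.67 over the 34 Met-1 cells and 0.50 over the 81 PyMT cells. Between Csn3 and Wfdc18 it was 0.35 in Met-1 and 0.54 in PyMT, and between Wfdc18 and Lcn2 -0.04 in Met-1 and 0.23 in PyMT. Wfdc2 followed Csn3 in Met-1 (0.50) and not in PyMT (-0.18). Lalba had a rho of 0.42 with Csn3 in Met-1 and 0.43 in PyMT. These points share a library and differ in depth: the rho of Csn3 with total UMIs was 0.19 in Met-1 and -0.01 in PyMT, while that of Ltf with total UMIs was 0.61 in Met-1.

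Among all other genes present in at least 25% of the luminal-like cells, 5755 in Met-1 and 5532 in PyMT, a few were most alike a member. For Csn3 they were Ly6e (rho 0.75), Slpi (0.68) and Lcn2 (0.67) in Met-1, and Cd81 (0.66), Ly6e (0.64) and Ctsh (0.62) in PyMT. Ly6e, a membrane protein gene, was thus on the list of Csn3 in both tumours. For Wfdc18 they were EGFP (0.57), Muc15 (0.53) and Smpdl3a (0.53) in Met-1, and Muc15 (0.65), Ctsh (0.59) and Csn3 (0.54) in PyMT. In PyMT the rho of Wfdc18 was -0.07 with EGFP and 0.29 with Smpdl3a. EGFP, the reporter of the sort, had only 77 UMIs in the Met-1 luminal-like cells. Muc15, a mucin of the milk fat globule, was also alike Lalba in both: 0.80 in Met-1, followed by N4bp2l2 (0.62) and Lgals7 (0.60), and 0.53 in PyMT, after Tspan15 (0.55) and before Kif21a (0.50). For Lcn2 they were Igfbp5 (0.73), Psme1 (0.71) and Oaz1 (0.69) in Met-1, and Csn3 (0.50), Clca3a2 (0.41) and Ly6e (0.38) in PyMT. For Wfdc2 they were Spns3 (0.77), Cst3 (0.74) and Lrrfip1 (0.73) in Met-1, and Lamp1 (0.45), Npc2 (0.45) and Rbm3 (0.43) in PyMT, with 0 genes in common. Ltf passed the presence limit in Met-1 only, with Zfyve16 (0.81), Tcf20 (0.80) and Igf2r (0.80). These are the highest of 5755 and 5532 values, so part of their height comes from that choice.

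Other genes of the secretory programme were described from lists. Of 25 other milk and secretory genes 11 were measured, of which 4 were at least 2-fold higher in Met-1 luminal-like cells and 3 lower, with a median log2 ratio of 0.87, beside 5.34% of all measured genes higher and 7.70% lower. The higher genes numbered 2 with the stricter class rule and 1 with cells thinned to 1000 UMIs. Thinned cells keep few UMIs, so genes can drop out as not measured, and that 1 does not show that differences were lost. The highest were Pigr, the receptor that carries antibodies into milk, at 185 CPM in Met-1 against 48.9 CPM in PyMT (log2 ratio 1.73), and Muc15 at 226 and 87.4 CPM (1.28). Folr1 (1.20) and Thrsp (1.12) were the other members that passed, named after their values were seen. The lowest were Btn1a1, butyrophilin of the milk fat globule membrane, at 6.10 CPM in Met-1 against 47.4 CPM in PyMT (-1.83), which reached 50 UMIs in PyMT only, and Trf, the iron carrier transferrin, at 3237 and 7496 CPM (-1.21). Mfge8 (-1.13) was the remaining member below, named likewise. Thus genes of milk proteins and milk fat did not lie on 1 side as a block.

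Of 18 regulators of alveolar cells 11 were measured, of which 3 were higher in Met-1 and 0 lower, with a median of 0.26, beside 5.34% and 7.70% of all measured genes. With cells thinned to 1000 UMIs 0 were higher. Kit, a receptor of luminal progenitors, was at 189 CPM in Met-1 against 43.7 CPM in PyMT (1.89). Ehf, an epithelial ETS factor, was at 675 and 244 CPM (1.43), and Sox9 (1.32) was named after its value was seen. At the low end were Cebpb (-0.36) and Elf3 (-0.09), neither past the mark. Of 12 hormone-sensing genes 3 were measured and 0 passed: Prlr (-0.02), Ly6a (-0.73) and S100a6 (-0.95), with a median of -0.73. Of 9 other WAP-family genes 2 were measured. Slpi, an inhibitor of leukocyte proteases, was at 148 CPM in Met-1 against 667 CPM in PyMT (-2.10), and Wfdc3 did not pass (-0.08). The other assigned cells held 25.3 CPM of Slpi in Met-1 and 257 CPM in PyMT, and the part of free RNA was not tested. Among 11 other lipocalins and transferrins, Trf alone was measured. Krt14 alone was measured of 8 basal genes (-0.93).

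Of 15 acute phase genes, which share inflammatory signals with Lcn2, 11 were measured, of which 0 were higher in Met-1 and 5 lower, with a median of -0.54, beside 5.34% and 7.70% of all measured genes. Of the 5, Cxcl2, Saa3, Cxcl1 and Il1b reached 50 UMIs in PyMT only, and with 50 UMIs in both libraries 1 was lower, Nfkbia. Cxcl2, a chemokine that draws neutrophils, had 1 UMI or 1.53 CPM in Met-1 against 552 UMIs or 409 CPM in PyMT luminal-like cells (-5.18). The other assigned cells held 632 CPM of it in the Met-1 library and 4359 CPM in the PyMT library, and the part of free RNA in this difference was not tested. Saa3 had 1 UMI in Met-1 and 95 UMIs in PyMT (-2.80), beside 10.9 and 163 CPM in the other assigned cells. Cxcl1 (-2.40), Nfkbia (-1.40) and Il1b (-1.08) were also lower, named after their values were seen, while Hp (0.38) and Cp (0.18) were the highest. In Met-1 and PyMT the other assigned cells held 55.0 and 174 CPM of Cxcl1, 363 and 1754 of Nfkbia, and 1351 and 3427 of Il1b. Of 14 neutrophil granule genes 5 were measured, among them Lcn2 and Ltf themselves, with 2 higher, 2 lower and a median of 0.16. Besides Ltf, S100a8 was higher, through the 1 cell named above, at 946 CPM in Met-1 against 79.2 CPM in PyMT (3.42). S100a9 (-2.47) and Lyz2 (-1.12) were lower, and both reached 50 UMIs in PyMT only. The other assigned cells held 364 CPM of S100a9 in Met-1 and 3733 CPM in PyMT, and 2428 and 4350 CPM of Lyz2. The part of free RNA in these differences was not tested.

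Csn3, Wfdc18 and Lcn2 reached 50 UMIs both in luminal-like and in the other assigned cells of each library, and all 3 were at least 2-fold higher in luminal-like cells. The share over all genes is given only for a looser minimum, 50 UMIs over both groups of cells together. At that minimum 7.72% of genes were at least 2-fold higher in luminal-like cells of Met-1 and 14.3% in those of PyMT. These shares are thus not a like background for the 3 members. Another 3 members in Met-1 (Wfdc2, Lalba and Ltf) and 5 in PyMT (these with Csn1s1 and Wap) reached 50 UMIs in luminal-like cells only, which fixes their direction, so they are not counted as a result. The 5 genes that stood highest over other cells were Wfdc18, Lcn2, Csn3, Krt8 and Krt18 in Met-1, and Wfdc18, Csn3, Krt18, Saa1 and Krt8 in PyMT, where Krt8 and Krt18 are markers of the class. Csn3 stood at 8348 CPM in luminal-like and 4.67 CPM in other assigned cells of Met-1, and at 14286.5 and 198 CPM in PyMT. Wfdc18 stood at 29279 and 36.7 CPM in Met-1, and at 10338 and 88.9 CPM in PyMT. As a share of the luminal-like level, the RNA in other assigned cells was 0.0559% for Csn3 and 0.125% for Wfdc18 in Met-1. In PyMT these shares were 1.38% and 0.860%. Both shares were lower in Met-1. Without the 2 barcodes with the most Csn3 UMIs, the other assigned cells of PyMT stood at 106 CPM of Csn3, in place of 198 CPM. The part of the number of luminal-like cells in this difference between 2 single libraries was not tested.

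Low levels were found in every class of at least 11 cells. In Met-1 the macrophage-, T or NK-, B-, fibroblast- and mural-like cells held 1.79 to 8.84 CPM of Csn3, 21.0 to 67.4 CPM of Wfdc18 and 1.85 to 6.63 CPM of Lcn2. In PyMT the macrophage-, T or NK-, B- and fibroblast-like cells held 56.8 to 227 CPM of Csn3, 55.5 to 89.4 CPM of Wfdc18 and 40.6 to 162 CPM of Lcn2. A Csn3 UMI was seen, after thinning each cell to 1000 UMIs, in 74.1% (53.7 to 88.9) of 27 luminal-like and 0.845% (0.341 to 1.73) of 828 macrophage-like Met-1 cells. Without thinning these were 76.5% and 3.995%. In PyMT it was seen in 82.9% (72.5 to 90.6) of 76 luminal-like and 9.95% (6.10 to 15.1) of 191 macrophage-like cells, and without thinning in 96.3% and 51.0%. Casein is not a known product of macrophages, and the part of free RNA in these shares was not tested. The rarer genes had few UMIs elsewhere. Lalba had 2 UMIs in 1863 other assigned cells of Met-1 and 47 in 442 of PyMT, Wfdc2 had 2 and 32, and Wap had 1 and 0. Their luminal-like levels were low as well. As a share of that level, other assigned cells of PyMT held 2.30% for Lalba, 2.06% for Wfdc2, 1.98% for Ltf and 1.04% for Csn1s1. The share for Csn3 was 1.38%. In Met-1 the shares of Lalba and Wfdc2 were 0.0622% and 0.121%.

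**Figure D4:**
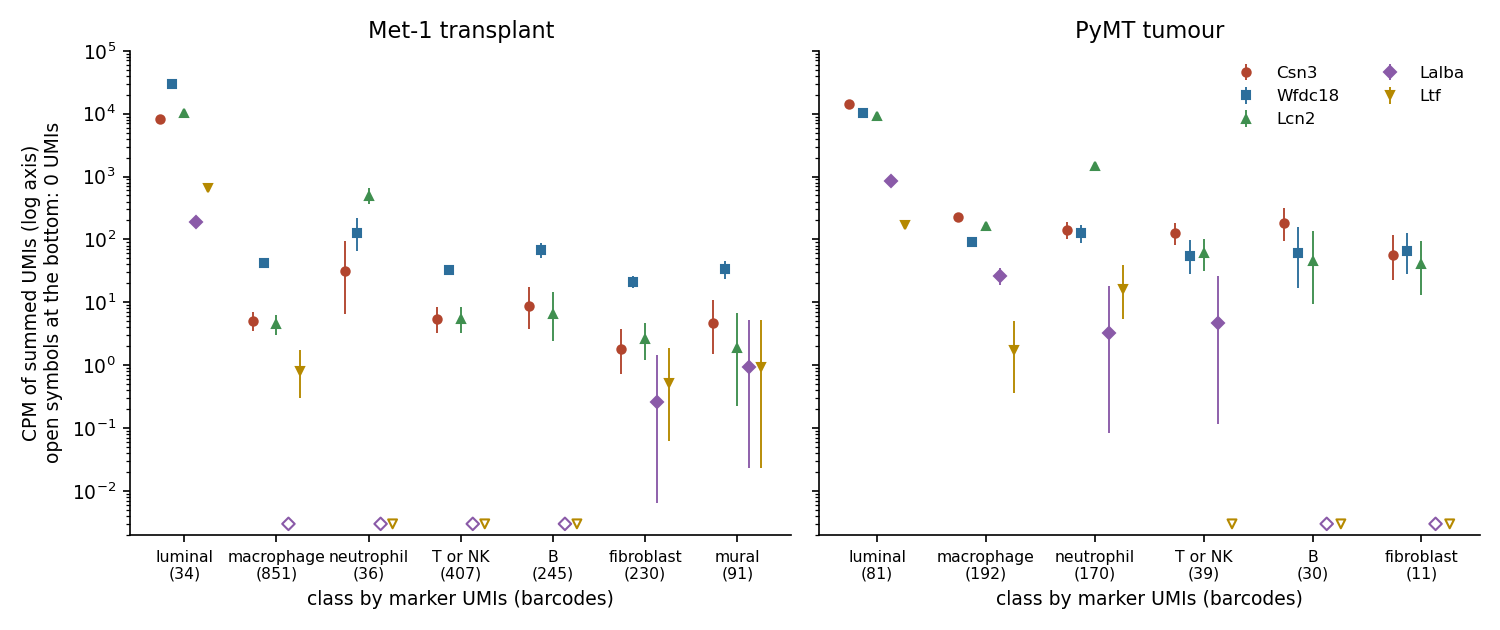
CPM of 5 genes (log axis) summed over the cells of each class, Met-1 on the left and PyMT on the right, with 95% counting intervals and the number of barcodes under each class. All 5 genes peak in luminal-like cells, and Lcn2 is far higher in neutrophil-like cells than in the other classes outside the epithelium, at 498 CPM in Met-1 against 1489 CPM in PyMT.

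In PyMT much of the macrophage signal came from 2 barcodes. They held 126 and 100 of the 389 Csn3 UMIs of the 192 macrophage-like cells, along with 51 and 39 luminal marker UMIs beside 213 and 192 macrophage marker UMIs. Their member RNA was unlike each other: the first had 3 UMIs of Wfdc18 and 35 of Lalba, and the second 55 of Wfdc18 and 0 of Lalba. Without them Csn3 stood at 98.2 CPM in macrophage-like cells, in place of 227 CPM, and Lcn2 at 64.5 CPM, in place of 162 CPM. These barcodes also held 35 of the 45 Lalba UMIs of this class.

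Lcn2 was not at a like low level in all classes. Neutrophil-like cells held 47 UMIs or 498 CPM (366 to 663) in Met-1 against 450 UMIs or 1489 CPM (1354 to 1633) in PyMT, which is 4.88% and 16.2% of the luminal-like level. Csn3 in the same cells had 3 UMIs in Met-1 and 43 in PyMT, and Wfdc18 had 12 and 38. The number of Lcn2 UMIs per Csn3 UMI was 15.7 (5.04 to 78.7) in neutrophil-like and 1.22 (1.18 to 1.27) in luminal-like cells of Met-1, and 0.400 to 1.43 in its other classes. In PyMT it was 10.5 (7.64 to 14.7) in neutrophil-like and 0.642 (0.627 to 0.656) in luminal-like cells, and 0.25 to 0.715 in its other classes. After thinning, 28.1% of 32 neutrophil-like cells of Met-1 and 46.5% of 159 of PyMT had an Lcn2 UMI. The 3 neutrophil-like barcodes richest in member RNA held 14, 11 and 7 UMIs of Lcn2 in Met-1 and 31, 26 and 22 in PyMT, with 0 luminal marker UMIs in each. In Met-1 the top 2 held 25 of the 47 UMIs, and without them the class was at 253 CPM. Ltf, the other granule gene among the members, did not follow: it had 0 UMIs in the neutrophil-like cells of Met-1, where a count of 0 allows up to 31.8 CPM, and 5 UMIs or 16.5 CPM (5.37 to 38.6) in those of PyMT. Of the late granule genes, Ngp had 0 UMIs in Met-1 and 57 in PyMT neutrophil-like cells, 28 of them in a single cell, and Camp had 0 in both.

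**Figure D5:**
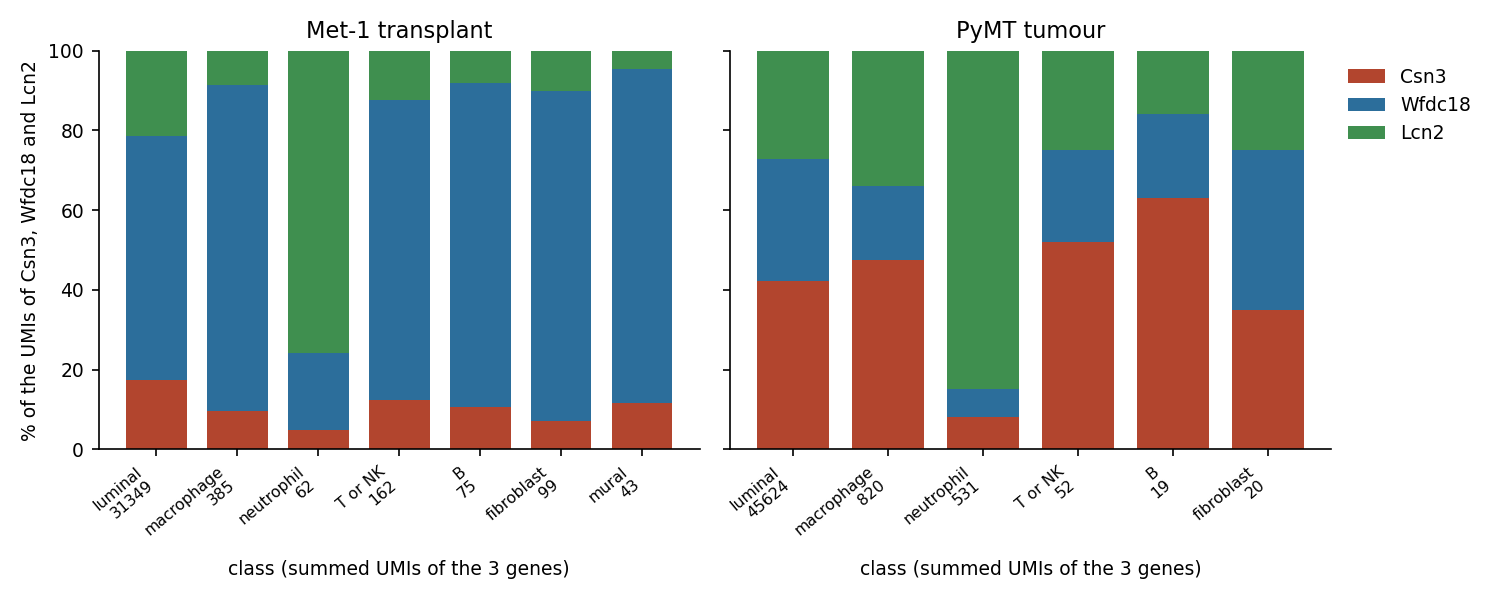
Make-up of the summed UMIs of Csn3, Wfdc18 and Lcn2 in each class, in percent, with the number of UMIs under each bar. Lcn2 makes up 75.8% in neutrophil-like cells of Met-1 and 84.7% in those of PyMT, against 21.4% and 27.1% in luminal-like cells.

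Outside the neutrophil-like cells, the make-up of the low-level RNA differed between the tumours. In Met-1, where Wfdc18 made up 61.2% of the 3 genes in luminal-like cells, it made up 75.3% to 83.7% in the other classes. In PyMT, where Csn3 led with 42.3% in luminal-like cells, Csn3 led in the macrophage-, T or NK- and B-like cells with 47.4% to 63.2%. The ratio of Wfdc18 to Csn3 in Met-1 was 3.51 (3.40 to 3.61) in luminal-like cells and 8.51 (6.04 to 12.3) in macrophage-like cells, a larger share of Wfdc18 than in the sum of the luminal-like cells. In PyMT it was 0.724 (0.708 to 0.740) and 0.393 (0.324 to 0.475). The leading gene of the low-level RNA was thus that of its own tumour's luminal-like cells, except in the fibroblast-like cells of PyMT, where Wfdc18 had 8 UMIs and Csn3 7. In PyMT the lower ratio in macrophage-like cells rests in part on the 2 barcodes above, without which 95 UMIs of Wfdc18 and 163 of Csn3 were left.

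Mixed barcodes, which carry markers of more than 1 class, held much of the remaining RNA. Of all Csn3 UMIs, 19.0% lay outside luminal-like cells in Met-1 and 11.4% in PyMT, and 1.64% and 2.47% when mixed barcodes were left out. In Met-1 a single mixed barcode accounted for most of it. It had 107951 UMIs, more than any luminal-like cell, with 621 luminal and 260 fibroblast marker UMIs (63.6% luminal), 1115 UMIs of Csn3, 2198 of Wfdc18 and 700 of Lcn2. It also held all 334 Lalba UMIs of the mixed class, against 123 in all 34 luminal-like cells together. The laxer class rule takes this barcode in as luminal-like, and the log2 ratio of Lalba was then -0.44, not past 2-fold. With the same rule and the barcode left out, it was -2.07. Without the barcode, 2.93% of the Met-1 Csn3 UMIs lay outside luminal-like cells. The top mixed barcodes of PyMT were less extreme, with 773 and 530 of the 2000 Csn3 UMIs of their class.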

How the data were processed

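The deposited matrices hold whole-number UMI counts per gene and barcode, made by the authors with Cell Ranger 3.1.0 on build mm10, per the submitters' processing notes. A filter for cells before deposit is not described in the labels. Kept barcodes had 500 or more UMIs, 200 or more genes and a mitochondrial share of 10% or less. Classes were set by marker UMIs; barcodes with 3 UMIs over 2 markers of a class but under 75% of marker UMIs were called mixed, and these and unassigned barcodes entered no class. No doublet caller was used, except as an alternative.

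For each class, UMIs of its cells were added up and given as CPM with exact Poisson intervals. Ratios have exact conditional binomial intervals and shares exact Clopper-Pearson intervals. CPM counts molecules and is not divided by gene length. Called higher or lower means a 2-fold ratio of (CPM + 10) among genes with at least 50 UMIs in either library. A count of 0 allows up to 3 UMIs over the class. With 1 library per group no test was made. The ratios and their intervals were tested on simulated sums that held counting error alone. These sums had no spread between cells, so the test does not bear on that spread in the data. Gene names in the text follow a rule: all 9 members, the 2 highest and 2 lowest of each list, the 5 leading genes and the 3 genes most alike each member. The members, lists and rules were chosen with earlier results of these data known. Promoters are from RefSeq (GRCm38.p6) and gene positions from the GENCODE annotation of mm10. Python 3.11.15, numpy 2.4.6, scipy 1.17.1 and scanpy 1.11.5 were used.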

Additional observations from a re-analysis of the deposited data

How the results depend on the processing

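No direction of a called member turned under the alternatives that gave it a value. Thinned cells gave none for Csn1s1, Wap and Ltf, and the minimum of 50 UMIs in both libraries none for Csn1s1 and Wap. No paired analysis was possible because each group has 1 library. Members higher in Met-1 numbered 2, except 1 with cells thinned to 1000 UMIs. Members lower ran from 1 to 5, with 2 where 50 UMIs were required in both libraries and 1 with thinned cells. Of 139 log2 ratios of members set against their value in the text, 100 stayed within its counting interval and 39 moved beyond it. Lalba was not past 2-fold with the laxer class rule of 2 UMIs and 60% (-0.44), in luminal-like Leiden clusters (-0.40) and with thinned cells (-0.36). Csn3 passed 2-fold with the stricter rule of 5 UMIs, 3 markers and 90% (-1.24) and without keratins (-1.13), and was at -0.07 with a mitochondrial limit of 5%. Lcn2, not called, ran from -0.10 to 0.57, and Wap was at -3.54 with the limit of 5%.

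The share of luminal-like UMIs in the 9 genes was, in Met-1, 4.70% with a mitochondrial limit of 20%, 5.40% with 5%, 4.81% with the stricter rule, 4.65% with the laxer rule, 4.79% without keratins, 4.36% in Leiden clusters and 3.69% as the median cell. In PyMT it was 3.75% with the limit of 5%, 3.53% without Scrublet calls, 4.02% with the stricter rule, 3.34% with the laxer rule, 3.74% without keratins, 3.06% in Leiden clusters and 3.20% as the median cell. The share of Csn3 outside luminal-like cells was, in Met-1, 30.3% with the limit of 5%, 36.9% with the stricter rule, 1.85% with the laxer rule, 36.4% without keratins, 1.38% in Leiden clusters and 1.64% without mixed barcodes. In PyMT these were 12.01%, 28.5%, 4.17%, 16.3%, 1.21% and 2.47%. With the deepest mixed Met-1 barcode left out, an alternative chosen after seeing the data (as was leaving out the top 2 barcodes of a class), the share outside was 2.93% in Met-1. With the laxer rule as well, it was 2.22% in Met-1 and 4.17% in PyMT, and the share of the 9 genes was 4.75% and 3.34%. Of the gene lists, other milk genes higher in Met-1 numbered 2 with the stricter rule and 1 with thinned cells. Alveolar regulators higher numbered 0 with thinned cells, and 1 was lower with no minimum of UMIs. Acute phase genes higher numbered 3 with the limit of 5%, and 1 without Scrublet calls and with no minimum. Acute phase genes lower numbered 1 with 50 UMIs in both libraries and with thinned cells. In thinned cells few genes reach 50 UMIs, so these list counts can fall through the minimum alone. The cause of these shifts was not tested, apart from the barcode above.

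Luminal-like cells numbered 22 to 59 in Met-1 and 52 to 110 in PyMT over the alternatives. With 34 Met-1 cells, sums rest on few deep cells, and a gene needs 76.3 CPM in Met-1 or 37.0 CPM in PyMT to reach 50 UMIs. Genes at a few UMIs per cell, such as Csn1s1, Csn2 and Wap, cannot be called absent from a cell at this depth.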
